A study of Mus musculus with 4 samples.

Results

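The costimulation and migration loci of dendritic cells are represented here by 4 genes, Cd86, Cd80, Cd40 and Ccr7. Each locus was defined by a window of the mm9 mouse genome: chromosome 16 from 36.57 to 36.72 Mb for Cd86, chromosome 16 from 38.42 to 38.54 Mb for Cd80, chromosome 2 from 164.85 to 164.93 Mb for Cd40, and chromosome 11 from 98.97 to 99.06 Mb for Ccr7. The members are all open chromatin intervals and all footprints that overlap a window. Together the windows held 68 of 83701 cDC1 intervals and 29 of 51941 pDC intervals, which merged into 72 of 93615 regions, and 379 of 513689 cDC1 footprints and 149 of 312959 pDC footprints. The loci were chosen by gene with earlier results of these data known, so the values below are a description and no test was made on them.

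The cells were mouse cDC1, classical dendritic cells that take up and cross-present antigen, and pDC, plasmacytoid dendritic cells, which are known for their secretion of type I interferon. Both were grown from bone marrow with Flt3 ligand after a phase of amplification with cytokines and were purified by FACS, cDC1 as CD11c+ CD11b+ XCR1+ and pDC as CD11c+ CD11b- B220+ cells. No genotype, strain, animal age or stimulus beyond the culture was stated in the labels or methods, and the sorting gates did not use the products of the 4 genes. For each cell type 2 replicate samples were subjected to Omni-ATAC-seq, which cuts accessible DNA with a transposase, but the authors merged them, so each value is that of 1 merged list and carries no replicate error. An mm9 annotation was not used here, so intervals were not assigned to promoters, exons or introns, the sorted cells were not checked at the loci of their marker genes, and no sequence is shown.

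Dendritic cells activate T cells through an antigen signal joined by costimulation, and CD80 and CD86 give the latter as ligands of CD28, a receptor that CTLA-4 competes with. CD40 is a receptor of the TNF receptor family through which activated T cells, by way of CD40 ligand, act back on the dendritic cell. CCR7 is the chemokine receptor for CCL19 and CCL21 and guides maturing dendritic cells to the lymph node. In the RefSeq annotation of GRCm38.p6, which was used for gene order alone, Cd86 lies between Casr and Ildr1, Cd80 between Adprh and Timmdc1, Cd40 between Ncoa5 and Cdh22, and Ccr7 between Tns4 and Smarce1. Some of the open regions described below may belong to these neighbours. This was not determined for the strongest cDC1 region of any window. These regions lay at 72.7 kb (Cd86), 42.8 kb (Cd80), −29.9 kb (Cd40) and 35.7 kb (Ccr7) from the window centre.

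Open chromatin at the 4 loci ran from almost entirely that of cDC1 at Cd86 to almost equal in both cell types at Ccr7. In the Cd86 window, 29 intervals with 12921 open bp were listed in cDC1 and 5 intervals with 1810 bp in pDC. In the Cd80 window the numbers were 15 intervals with 8074 bp and 4 intervals with 2494 bp. The order of the cell types was thus the same at both CD28 ligands, and the ratio of open bp was 7.14 at Cd86 and 3.24 at Cd80. In the Cd40 window, 9 intervals with 6146 bp in cDC1 stood beside 7 intervals with 3390 bp in pDC, a ratio of 1.81. In the Ccr7 window, 15 intervals with 6083 bp stood beside 13 intervals with 5112 bp, a ratio of 1.19. Over the whole lists the ratio of open bp was 1.63, so Cd86 and Cd80 lay above it, Cd40 close to it and Ccr7 below it.

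**Figure D1:**
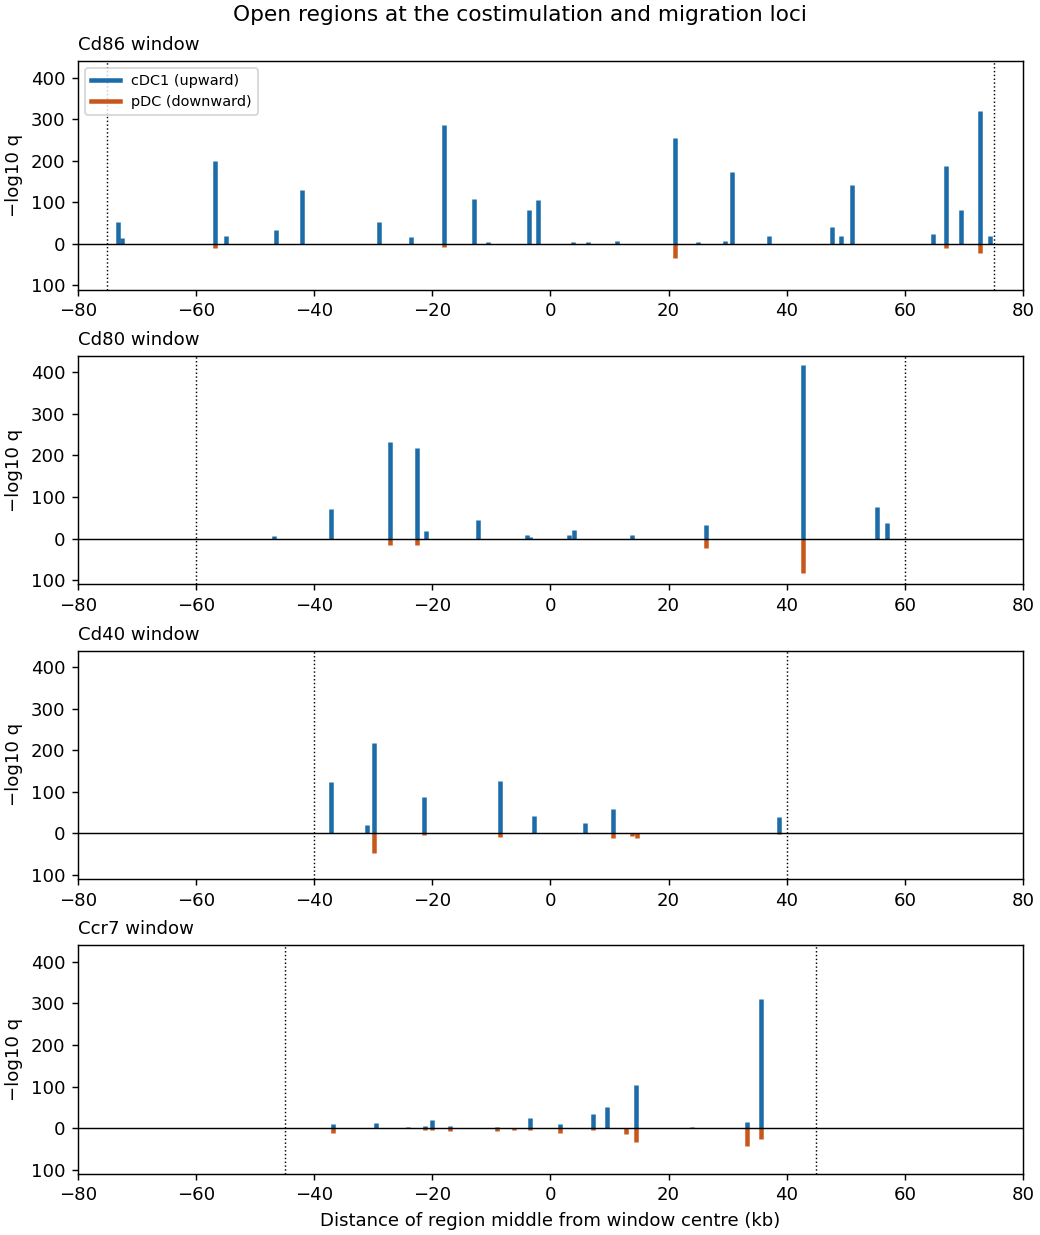
Open regions in the 4 windows, with the distance of the region middle from the window centre (x axis, kb) and the −log10 q of the strongest summit (y axis), upward for cDC1 and downward for pDC on 1 scale; dotted lines are the window edges. The cDC1 lines reach 320 at Cd86, 418 at Cd80, 218 at Cd40 and 312 at Ccr7, and the pDC lines 34.6, 83.8, 48.5 and 43.6.

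A merged region joins all intervals of either list that overlap by at least 1 bp, and was called open in cDC1 only, in pDC only or in both. Of the 72 regions, 43 (59.7%, 95% Wilson interval 48.2 to 70.3%) were open in cDC1 only, against a background of 45.5% among all regions. Only 4 (5.56%, 2.18 to 13.4%) were open in pDC only, against 11.0%, and 25 (34.7%, 24.8 to 46.2%) were open in both, against 43.5%. These Wilson intervals cover counting error only. They treat regions as independent, although the regions lie together in 4 windows, so they may be too narrow. Only the one for cDC1 leaves out its background, which is a description and not a test. With the cDC1 list limited to the length of the pDC list, 27 regions were open in cDC1 only, 19 in both and 10 in pDC only. The background under that limit was not computed. The pooled shares hide a contrast between the loci. At Cd86, 24 of 29 regions (82.8%, 65.5 to 92.4%) were open in cDC1 only and 5 in both. At Cd80, 11 of 15 (73.3%, 48.0 to 89.1%) were open in cDC1 only and 4 in both. Neither window held a region open in pDC only. At Cd40, 4 of 11 regions (36.4%, 15.2 to 64.6%) were open in cDC1 only, 5 in both and 2 in pDC only. At Ccr7, 4 of 17 (23.5%, 9.56 to 47.3%) were open in cDC1 only, 11 in both and 2 in pDC only. The interval of Cd86 lay wholly above that of Ccr7, while those of neighbouring loci in this order overlapped. The order of the other loci depended on weak intervals. With intervals of a −log10 q under 10 left out, 20 of 23 regions were open in cDC1 only at Cd86 and 6 of 10 at Cd80. At Cd40 it was 7 of 10 and at Ccr7 5 of 11, so that Cd40 stood above Cd80. This limit removes a larger part of the pDC list, with a median of 13.5, than of the cDC1 list, with 30.4. At Cd40 the rise from 4 to 7 came from shared regions whose pDC intervals had 4.82, 8.82 and 2.38. The share over the whole lists under this limit was not computed.

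**Figure D2:**
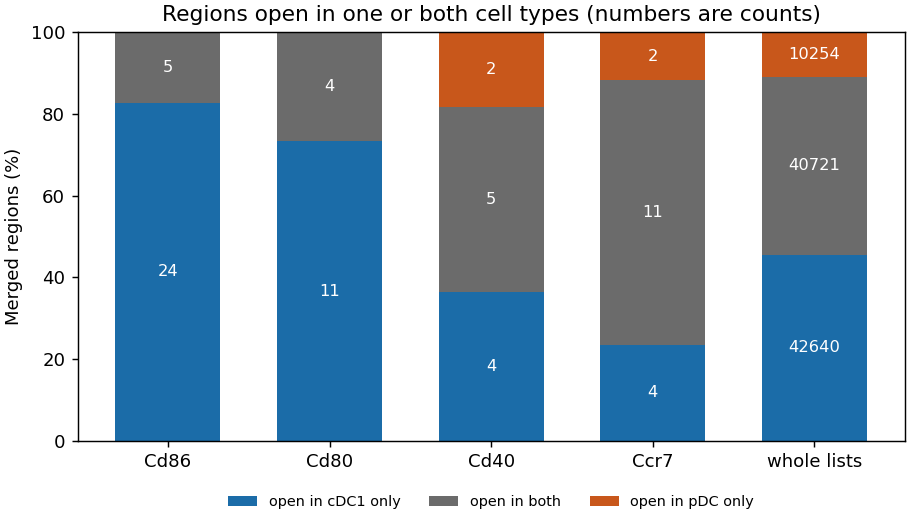
Share of merged regions (y axis, percent) that were open in cDC1 only, in both cell types or in pDC only, at each locus and over the whole lists (x axis); numbers in the bars are counts of regions. The share open in cDC1 only goes from 82.8% at Cd86 to 23.5% at Ccr7, with 45.5% over the whole lists.

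Footprints had more tags in cDC1, with a mean of 362 against 142 in pDC over the whole lists. The part of this in the regions found in cDC1 only was not tested, but their tag counts can be set on the scale of pDC. At 91319 pairs of footprints found in both cell types across the genome, the cDC1 tag count was 3.28 times that of pDC in the median. When the highest tag count of each region open in cDC1 only was divided by this factor, it was above 67, the first quartile of the regions listed in pDC, in 12 of 24 regions at Cd86, 3 of 11 at Cd80, 3 of 4 at Cd40 and 1 of 4 at Ccr7. Among all regions open in cDC1 only, 27.2% passed this limit.

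Weak cDC1 regions were mostly shared at Ccr7 and not shared at the other loci. A region was taken as weak when its −log10 q was below the median of the cDC1 list, and across the genome 74.1% of such regions were open in cDC1 only. At Cd86, Cd80 and Cd40, all 13, 7 and 2 weak regions were open in cDC1 only. At Ccr7 this was true of 3 of 11, and the other 8 were open in pDC as well. Among the regions above the median, where the background is 28.3%, 11 of 16 were open in cDC1 only at Cd86, 4 of 8 at Cd80, 2 of 7 at Cd40 and 1 of 4 at Ccr7.

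At Cd86, all 5 regions open in both cell types lay above the list median in cDC1, and 2 of them did so in pDC. The region with the largest −log10 q in cDC1, chr16:36717488-36718011, had 320 there and 23.2 in pDC, and its fold enrichment over the MACS2 background was 11.2 and 6.21. The region chr16:36626606-36627340 reached a −log10 q of 287 in cDC1 against 8.50 in pDC and carried the highest tag count of the locus, 1204 in cDC1 against 74 in pDC. These values put it at the percentile 92.2 of the cDC1 list and 35.9 of the pDC list, the widest gap between the lists at this locus. The region chr16:36665770-36666351 was the strongest of the locus in pDC, with a −log10 q of 34.6 against 256 in cDC1. Its strongest summits lay at the same base in both cell types, and of the shared regions at Cd86 it had the closest percentiles in the lists. The other shared regions, chr16:36587980-36588475 and chr16:36711687-36712291, reached 200.3 and 187 in cDC1 against 9.15 and 10.5 in pDC.

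The regions at Cd86 that were open in cDC1 only included strong ones. Of these 24, 11 lay above the median of the cDC1 list. The strongest were chr16:36675393-36675921 with a −log10 q of 174, chr16:36695746-36696243 with 141, chr16:36602687-36603158 with 129, chr16:36631797-36632499 with 108 and chr16:36642617-36643328 with 105. They had highest tag counts of 542, 521, 469, 531 and 527. Every shared region at Cd86 had a higher count in cDC1 than these, from 606 up, with a median of 798. Over the shared regions of the 4 loci the median was lower, 318. Not all regions open in cDC1 only were below 606, since chr16:36714232-36714677 had 680. Further along the list were chr16:36714232-36714677 and chr16:36641091-36641777, both at 81.5, chr16:36571591-36572109 at 53.7, chr16:36615696-36616119 at 51.9, chr16:36692532-36692863 at 39.7 and chr16:36598222-36598742 at 34.5. The region chr16:36631797-36632499 held 14 footprints, the most of the locus, and none of them had a counterpart in pDC, since no pDC interval was listed there. In pDC no interval was listed over 45.5 kb, from position 36666323 to 36711863, and 8 cDC1 intervals lay wholly inside this stretch.

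At Cd80, the strongest region of all 4 loci was open in both cell types. This region, chr16:38522312-38523302, reached a −log10 q of 418 in cDC1 against 83.8 in pDC, at the percentiles 96.7 and 92.0, and held 16 cDC1 and 8 pDC footprints with up to 1612 and 431 tags. It lay toward the right end of the window, 42.8 kb from its centre, and whether it belongs to Cd80 or to a neighbouring gene was not determined. The regions chr16:38452386-38453284 and chr16:38457174-38457676 were nearly as strong in cDC1 as each other, with 234 and 217, and had 14.6 and 15.3 in pDC. The region chr16:38506110-38506575 was the exception at the locus, since its −log10 q, 31.5 in cDC1 against 22.9 in pDC, put it higher in the pDC list, at the percentile 64.1, than in the cDC1 list, at 50.9. Between these shared regions pDC had no interval over 48.6 kb, from position 38457599 to 38506178, and 7 cDC1 intervals lay wholly inside. Of the 11 regions open in cDC1 only, 4 lay above the list median, namely chr16:38535014-38535455 with 76.0, chr16:38442312-38443279 with 72.4, chr16:38467373-38467994 with 45.1 and chr16:38536713-38537213 with 38.2.

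At Cd40, both cell types shared the leading region, and pDC had regions of its own. The region chr2:164859537-164860661 had the largest −log10 q of the locus in cDC1, 218, and in pDC, 48.5, and its highest tag counts were 882 and 287. It lay at −29.9 kb from the window centre, and whether it belongs to Cd40 or to a neighbouring gene was not determined. The region chr2:164880494-164882269, the widest of the 4 loci with 1776 bp, held the most footprints, 20 in cDC1 and 8 in pDC. Its −log10 q was 127 in cDC1 against 8.82 in pDC, and the strongest summits of the cell types lay 305 bp apart, the largest such distance at the 4 loci. The region had 3 summits in cDC1 and 2 in pDC, and only the strongest of each were compared. The regions chr2:164852581-164853088, with a −log10 q of 123, and chr2:164887056-164887516, with 40.7, were the stronger of those open in cDC1 only. In pDC only, the adjacent regions chr2:164903658-164903913 and chr2:164904485-164904882 had a −log10 q of 6.01 and 10.6 and held 5 and 7 footprints with up to 101 and 112 tags. Both were below the median of the pDC list, which is 13.5. They fell in the widest stretch without a cDC1 interval in any of the windows, 27.6 kb from position 164900863 to 164928422. The remaining shared regions, chr2:164868410-164868947, chr2:164900384-164900862 and chr2:164928423-164928891, had 86.6, 58.9 and 39.5 in cDC1 and 4.82, 12.2 and 2.38 in pDC, the last being the weakest pDC interval at the 4 loci.

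At Ccr7, 11 of 17 regions were shared in the lists as deposited, and most intervals were weak in both cell types. The majority of shared regions was lost under other limits. With intervals of a −log10 q under 10 left out, 4 of 11 regions were open in both, 5 in cDC1 only and 2 in pDC only. With the cDC1 list limited to the length of the pDC list, 5 of 14 were open in both, 1 in cDC1 only and 8 in pDC only. In cDC1 the median −log10 q was 12.9, with 30.4 over the whole list, and in pDC it was 6.99, with 13.5 over the whole list. A single strong region stood out in cDC1, chr11:99050281-99051026, with a −log10 q of 312 and a fold enrichment of 14.4, the highest of the 4 loci, against 25.9 and 5.47 in pDC. Only 1.74 kb to its left, the region chr11:99048136-99048539 had the reverse order. Its −log10 q was 13.6 in cDC1 against 43.6 in pDC, with a fold enrichment of 2.77 and 7.09, and the same highest tag count of 191 in both cell types. It stood at the percentile 32.2 of the cDC1 list and 79.4 of the pDC list, and it was the strongest pDC interval of the locus. The region chr11:99029174-99029783 was similarly placed in both lists, at the percentiles 74.9 and 73.2, with a −log10 q of 103 and 33.4. Among the regions of one cell type, chr11:99024303-99024721 was above the list median in cDC1, with 49.5, and chr11:99027555-99027911 in pDC, with 14.6. These lay 2.83 kb apart, so that within 5.48 kb the locus held a region of cDC1 only, a region of pDC only and a region open in both. The other region of pDC only, chr11:99008724-99009020, had 4.19.

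The percentile of a region in its own list needs no scaling factor between libraries, although the lists differ in length. Of the 25 shared regions, 18 stood at a higher percentile in cDC1, against a background of 75.9%, so the pooled count was close to that of all shared regions. By locus it was 5 of 5 at Cd86, 3 of 4 at Cd80, 5 of 5 at Cd40 and 5 of 11 at Ccr7. The other 7 stood higher in pDC, against 24.1%, and the 6 of these at Ccr7 were at the percentiles 2.64 to 32.2 of the cDC1 list.

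**Figure D3:**
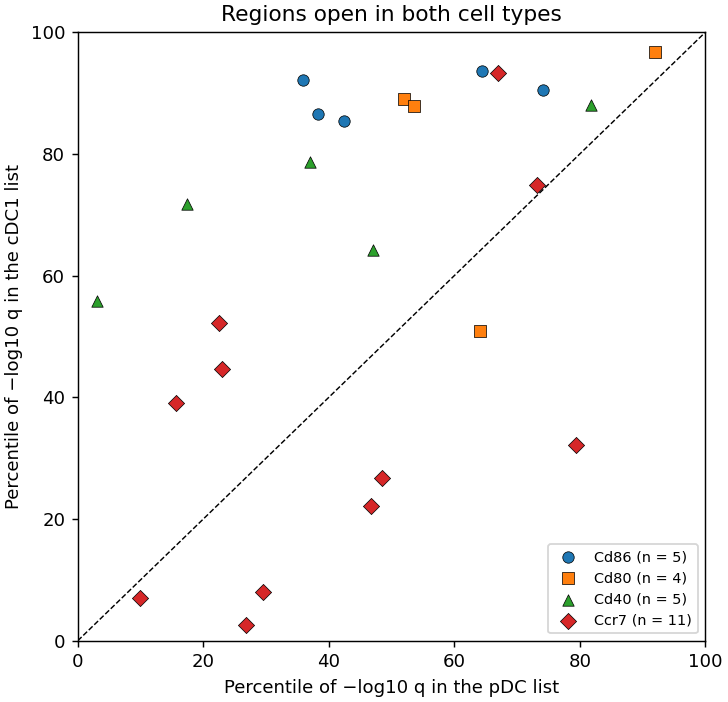
Percentile of the −log10 q of the 25 regions open in both cell types in the pDC list (x axis) and in the cDC1 list (y axis), with 1 symbol per locus; the dashed line marks equal percentiles. The Cd86 and Cd40 regions lie above the line, 3 of 4 Cd80 regions do, and the Ccr7 regions lie on both sides.

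Tag counts of the same footprint in both cell types gave the same order of the loci, with a median scaled ratio, defined below, of 2.34 at Cd86, where it rests on 2 pairs, 1.82 at Cd80, 1.13 at Cd40 and 0.52 at Ccr7. By fold enrichment the order differed, as given further on. A pair was made of footprints of different cell types that overlap by at least 50% of the bases of both, and 18 of the 25 shared regions had a pair. The pair with the most tags stood for the region, and its ratio of cDC1 to pDC tags was divided by the median ratio of 3.28, so that 1 is the middle of the genome. At least 2-fold higher in cDC1 were 4 of the 18 regions, against 8.93% of all paired regions, and at least 2-fold higher in pDC were also 4, against 12.6%. The former were 1 region of 2 with a pair at Cd86, 2 of 4 at Cd80, none of 4 at Cd40 and 1 of 8 at Ccr7. The latter were all at Ccr7.

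At Cd86 the region chr16:36717488-36718011 had 1060 tags in cDC1 and 101 in pDC, a scaled ratio of 3.20 (exact 95% interval 2.61 to 3.97). The region chr16:36665770-36666351, with the closest percentiles, had 698 and 145 tags, a scaled ratio of 1.47 (1.23 to 1.77). The other 3 shared regions of the locus had no pair. At Cd80 the region chr16:38457174-38457676 had 925 and 106 tags, a scaled ratio of 2.66 (2.18 to 3.29), and the region chr16:38452386-38453284 had 990 and 124 tags, a scaled ratio of 2.44 (2.02 to 2.96). The strongest Cd80 region was close to the middle of the genome, with 1374 and 351 tags and a scaled ratio of 1.20 (1.06 to 1.35). The region chr16:38506110-38506575 had 194 and 99 tags, and its scaled ratio of 0.60 (0.47 to 0.77) was on the side of pDC. The intervals are exact ones for 2 counts, and they leave out the spread between replicates.

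At Cd40 the scaled ratio of the leading region was 0.92 (0.81 to 1.06), from 869 and 287 tags. The widest region had 508 and 95 tags, a scaled ratio of 1.63 (1.31 to 2.05), and the region chr2:164900384-164900862 had 169 and 86 tags, a scaled ratio of 0.60 (0.46 to 0.79). The remaining paired region, chr2:164928423-164928891, had 223 and 51 tags, a scaled ratio of 1.33 (0.98 to 1.85). By paired tags Cd40 therefore held regions on either side of the middle and none past the 2-fold limit. The measures differed for chr2:164900384-164900862. Its highest tag counts gave a scaled ratio of 0.72, but its fold enrichment gave 1.32. Its percentile was 64.2 in the cDC1 list and 47.1 in the pDC list.

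At Ccr7, 7 of 8 paired regions had a scaled ratio below 1, against 50.5% of all paired regions. The strong region chr11:99050281-99051026 was the exception, with 723 tags in cDC1 and 88 in pDC and a scaled ratio of 2.51 (2.01 to 3.17). Its neighbour chr11:99048136-99048539 had 191 tags in both, a scaled ratio of 0.31 (0.25 to 0.38), or 3.28-fold in favour of pDC. The other regions past the limit were chr11:98997814-98998077 with 52 and 62 tags and a scaled ratio of 0.26 (0.17 to 0.38), chr11:99005774-99006185 with 82 and 92 tags and 0.27 (0.20 to 0.37), and chr11:98977752-98978530 with 94 and 75 tags and 0.38 (0.28 to 0.53). All 4 regions past the limit in favour of pDC were weak in cDC1, where they lay below the median of the list. Among all paired regions below that median, 41.6% were at least 2-fold higher in pDC and 94.1% had a scaled ratio below 1, and a low ratio is partly built into the choice of regions that are weak in cDC1 and still listed in pDC. The counts at Ccr7, 4 of 6 and 6 of 6 such regions, are to be read against these shares and not against those of all regions. All 4 regions past the limit in favour of cDC1 lay above that median. So did 2848 of the 2850 such regions across the genome, so this position is nearly fixed by the measure. They were 4 of the 12 paired regions above that median, where the background is 11.4%.

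**Figure D4:**
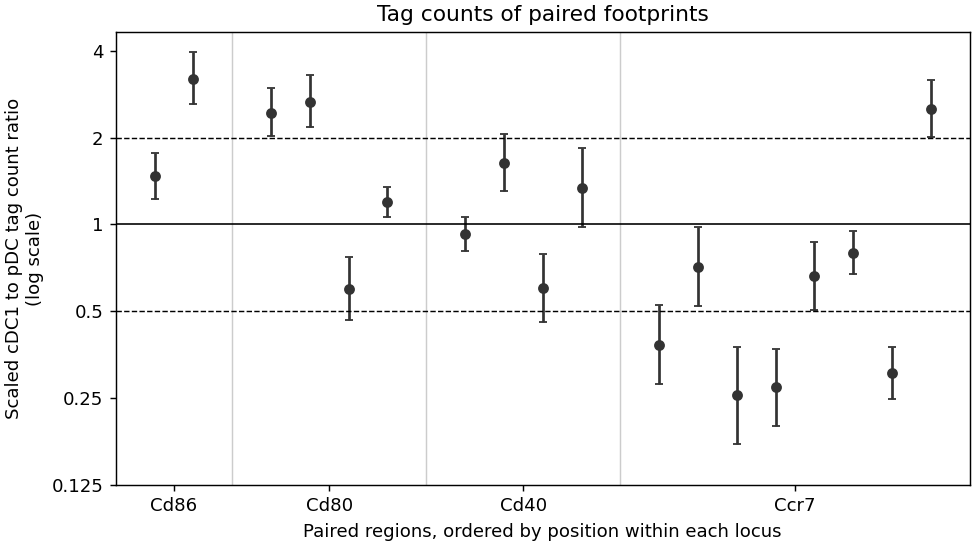
Scaled ratio of cDC1 to pDC tag counts (y axis, log scale) of the 18 paired regions, in order of position within each locus (x axis); points are 1 pair of footprints each and bars are exact 95% intervals for counting error. A solid line marks the median of all pairs and dashed lines mark the 2-fold limits; the 4 points below the lower dashed line are all at Ccr7.

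Part of this depended on the measure. With the highest tag count of each cell type in a region in place of a pair, which gave a value for all 25 shared regions, 4 of 5 at Cd86 and 2 of 4 at Cd80 were at least 2-fold higher in cDC1, against 10.4% of all shared regions, and 6 of 11 at Ccr7 were at least 2-fold higher in pDC, against 13.7%. These 6 were among the 8 shared Ccr7 regions that were weak in cDC1, and the background of such regions is 40.2%. All shared regions at Cd86 and Cd80 lay above the list median in cDC1. The background of regions above it was not computed for this measure. The strong Ccr7 region then had a scaled ratio of 1.83. With the fold enrichment of the intervals, divided by its median ratio of 1.45, the median of the shared regions was 1.42 at Cd86, 1.20 at Cd80, 1.48 at Cd40 and 0.64 at Ccr7, so that Cd40 came first. By this measure chr11:99048136-99048539 was the only region at least 2-fold higher in pDC, at a scaled ratio of 0.27 and against a background of 6.34%. In cDC1, 2 regions at Cd86 and 1 at Cd40 were at least 2-fold higher by this measure, against 5.80%, and none at Cd80 or Ccr7.

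Footprints, the short stretches inside open chromatin in which bound protein leaves fewer cleavage events, followed the open regions in number. The Cd86 window held 139 in cDC1 and 19 in pDC, the Cd80 window 94 and 23, the Cd40 window 77 and 40, and the Ccr7 window 69 and 67. At Ccr7 the numbers were thus nearly equal, while the ratio over the whole lists was 1.64. Footprints covered 23.7% of the open bp of the 4 loci in cDC1 and 26.6% in pDC, close to the 24.1% and 25.3% of the whole lists. Ccr7 footprints had a median tag count of 112 in cDC1 and 63 in pDC, both the lowest of the 4 loci, and those at Cd86 had medians of 256 and 74. Among the 25 shared regions, 14 had more footprints in cDC1, against a background of 55.1%, 7 had more in pDC, against 34.4%, and 4 had equal numbers. Of the 7 regions with more in pDC, 5 were at Ccr7.

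A footprint was called shared when footprints of the other cell type covered at least 50% of its bases. Of the cDC1 footprints, 10 of 139 (7.19%, Wilson interval 3.95 to 12.7%) were shared at Cd86, 13 of 94 (13.8%, 8.26 to 22.2%) at Cd80, 25 of 77 (32.5%, 23.1 to 43.5%) at Cd40 and 29 of 69 (42.0%, 31.1 to 53.8%) at Ccr7. Over the whole cDC1 list 28.6% were shared, so the Wilson intervals of Cd86 and Cd80 lay below this share and that of Ccr7 above it. Wilson intervals treat footprints as independent. The footprints here lie together in 29 cDC1 intervals at Cd86, 15 at Cd80 and 15 at Ccr7, so the Wilson intervals may be too narrow. Most cDC1 footprints at Cd86 and Cd80 lay in regions without a pDC interval, where none could be shared. Inside regions open in both, the shares were 31.3% at Cd86, 37.1% at Cd80, 49.0% at Cd40 and 54.7% at Ccr7, in the same order but closer together, against 47.9% over the whole list. The shares of all pDC footprints differed less. At Ccr7, 25 of 67 (37.3%, 26.7 to 49.3%) were shared, at Cd86 9 of 19 (47.4%, 27.3 to 68.3%), at Cd80 11 of 23 (47.8%, 29.2 to 67.0%), and at Cd40 20 of 40 (35.2 to 64.8%). These intervals all included the 44.4% of the whole pDC list. Inside regions open in both, the pDC shares were 47.4% at Cd86, 47.8% at Cd80, 71.4% at Cd40 and 43.9% at Ccr7. The whole pDC list had 52.7% there, and the pDC shares did not differ less than those of cDC1.

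**Figure D5:**
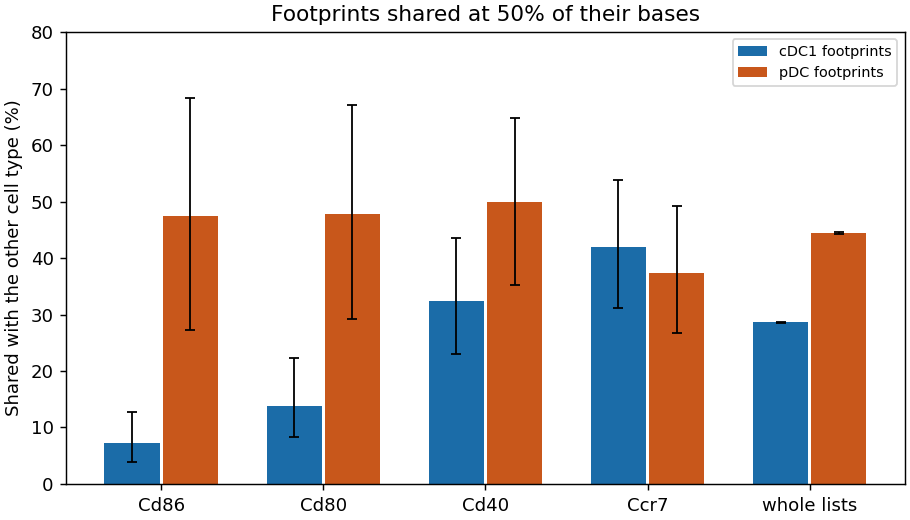
Share of footprints (y axis, percent) that are covered to at least 50% of their bases by footprints of the other cell type, at each locus and over the whole lists (x axis), for cDC1 and pDC; error bars are 95% Wilson intervals. The cDC1 share rises from 7.19% at Cd86 to 42.0% at Ccr7, while the pDC share is lowest at Ccr7, with 37.3%.

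Among the 3 footprints with the most tags in each cell type, every locus had some that were shared. At Cd40 the 3 cDC1 footprints with the most tags, which had 836 to 882, and the 3 pDC footprints with the most, which had 246 to 287, all lay in the leading region and were all shared. At Cd86 the cDC1 footprints with 1204 and 1148 tags, from position 36627078 to 36627104 and from 36627107 to 36627111, were not shared, although the region was open in pDC, and the one with 1090 tags beside them was. The 3 pDC footprints with the most tags at Cd86, which had 141 to 145, lay in the region chr16:36665770-36666351 and were shared. At Cd80 the cDC1 footprint with the most tags, 1612 from position 38522786 to 38522817, and the pDC footprint with the most, 431 from position 38522775 to 38522788, overlapped by 3 bp and were not shared by the rule of 50%. The next 2 pDC footprints there, with 351 and 331 tags, were shared, and of the next cDC1 footprints the one with 1374 tags was shared and the one with 1406 was not. At Ccr7 the cDC1 footprints with the most tags, 673 to 727, lay in the strong region on the right, and of these the one with 723 was shared. The pDC footprints with the most, 185 to 192, lay in chr11:99029174-99029783 and chr11:99048136-99048539 and were all shared.

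The share of shared regions with summits close together was near that of the whole lists. The distance between the strongest summits was at most 50 bp in 17 of the 25 regions (68.0%), against a background of 70.1%, and by locus in 5 of 5 at Cd86, 3 of 4 at Cd80, 3 of 5 at Cd40 and 6 of 11 at Ccr7. The longest distance was the 305 bp at Cd40, in a region with several summits in each cell type.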

How the data were processed

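Omni-ATAC-seq libraries of cDC1 and pDC were deposited with 2 replicate samples each. Per the methods and the submitters' processing notes, the authors trimmed reads (Trim Galore), aligned them to mm9 (Bowtie2), removed duplicates and low-quality alignments (SAMtools), called peaks (MACS2) and ran HINT-ATAC on merged replicates; no versions are named. The deposited peak lists give the fold enrichment, a ratio over the MACS2 background, the −log10 q, and a −log10 p and a score of about 10 times the −log10 q, which were not used. The deposited footprint lists give a tag count, read as not scaled for library size, with no counting window stated. On 8 of 21 chromosomes an interval reaches past the last base of GRCm38.

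The methods name a filter of merged peaks at a q-value above 10, but the deposited lists hold −log10 q values from 1.30, and all were used. Peaks listed with identical borders count as 1 interval and keep their largest −log10 q. Percentiles are ranks of the −log10 q within 1 list. Pairs of footprints were made 1 to 1, most shared bases first. The steps were tested on simulated data. With 1 merged list per cell type no p-value was computed, and leaving out a replicate was not possible. PCR reads without molecular identifiers are not independent molecules, and both ends of a fragment may be counted, so intervals may be too narrow. Members and windows were chosen with earlier results of these data known. Within each locus, the text names the 3 intervals of each cell type with the largest −log10 q, the region with the most footprints, regions of one cell type at or above the median −log10 q of its list, and paired regions past the 2-fold limit; others were named after their values were seen. The division into weak and strong cDC1 regions and the measures in place of paired tags were also added then. Lists of marker and pathway genes were planned but not computed, since an mm9 annotation was not used here. Python 3.11.15, numpy 2.4.6, pandas 2.3.3, scipy 1.17.1 and matplotlib 3.10.9 were used.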

Additional observations from a re-analysis of the deposited data

How the results depend on the processing

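No paired analysis was possible because the lists hold merged replicates only. Of 72 regions, 43 were open in cDC1 only, 25 in both and 4 in pDC only. Without intervals of a −log10 q under 10, a limit that the study's methods also name, 13 were open in both, with 4 instead of 11 at Ccr7, and at Cd40 7 instead of 4 were open in cDC1 only. With the cDC1 list limited to the length of the pDC list, 27 were open in cDC1 only and 10 in pDC only, of which 8 at Ccr7, where 5 were open in both. In the middle 50% of each window, 23 were open in cDC1 only and 15 in both, by construction of the narrower window. For tag ratios, pairs at an overlap of 1 bp gave 7 of 24 regions at least 2-fold higher in cDC1, against 9.85% of all such regions. A limit of 1.5-fold gave 7 of 18 higher in pDC, against 22.5%. Of these, 5 were at Ccr7, where most paired regions were weak in cDC1. The share among all such weak regions was not computed at this limit. Fold enrichment, an alternative chosen after seeing the data, gave 1 of 25 at least 2-fold higher in pDC, against 6.34%. The share of cDC1 footprints that were shared was 20.3%, or 16.1% at an overlap of 80%, 25.6% with the cDC1 list limited to the length of the pDC list and 45.0% inside regions open in both. The share of pDC footprints was 43.6%, or 33.6% at 80% and 32.9% with the limited list, under which it was 14.9% at Ccr7. The causes were not tested beyond the construction of each alternative. The other 21 alternative values over the 4 loci stayed within 1.5 times the count or within the Wilson interval of the share. Read depth is not given in the lists, and its part in the results was not tested.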
